A study of Mus musculus with 48 samples.

Results

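The preDC and pDC libraries are 2 of the 48 samples of a mouse study of dendritic cells (DC), the cells that take up antigen and start immune responses. They were chosen by their labels, without use of measured values: the preDC library and the pDC library in a table of sorted cell populations, each population being 1 library. Polyadenylated transcripts were read at their 3′ ends, from RNA extracted with Qiazol and a miRNeasy kit. The preDC were sorted from bone marrow as CD11c+CD11b+CD45RA− cells, and their strain field reads C57BL/13. The pDC were sorted from spleen as mPDCA+ cells, and their strain field reads C57BL/12. This field counts up by 1 across the sorted samples, and the labels used here give no sex, age, animal number or treatment for either sort. Levels in 7 other sorted populations of the same table are given for orientation: CDP, MDP, MP, Ly6c+ monocyte and Ly6c- monocyte from bone marrow, and CD8+ DC and DN DC (gated as CD8- CD4-) from spleen.

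Plasmacytoid DC (pDC) circulate as round, antibody-secreting-cell-like cells, sense viral nucleic acids through endosomal Toll-like receptors (TLR) and are known for making large amounts of type I interferon. Conventional DC present peptides on MHC class II molecules to CD4 T cells, and the name preDC is commonly used for their dividing precursors in bone marrow. The regulator encoded by Tcf4 is required for the pDC fate, while those encoded by Id2, Batf3 and Zbtb46 mark or shape conventional DC. Ciita encodes the coactivator that switches on MHC class II genes, and the class II invariant chain is encoded by Cd74.

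The preDC library held 1788978 estimated counts and the pDC library 3425059, within a range of 873734 to 5148680 over the 9 populations. Levels are in CPM, counts scaled to 1000000 per library over named genes. A single count was worth 0.559 CPM in preDC and 0.292 CPM in pDC, and a gene without counts could still be at 1.68 CPM in preDC or 0.876 CPM in pDC (3 counts). With 1 library per population there was no test: a difference is given as the log2 ratio of preDC over pDC with 5 CPM added to each level, and 95% intervals of a ratio (exact binomial) cover counting error only. Genes with a mean of at least 10 CPM over the pair are called measured, those at least 4-fold apart on this scale higher or lower, and those less than 2-fold apart shared. The name preDC stands here for the library with that label, whose markers are checked next against it. Tissue, sort gate and library all differ between the 2 samples and cannot be told apart, nor can fewer cells of a type and less RNA per cell in these bulk samples.

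The 2 libraries were alike in most genes. Of 8329 measured genes, 6859 were shared (82.4%), 285 were higher in preDC (3.42%) and 133 were lower (1.60%). The remaining genes lay between 2-fold and 4-fold, 524 of them on the higher side and 528 on the lower side, and the median log2 ratio of all measured genes was 0.03. Counting error was small beside these differences: the interval of the ratio lay wholly beyond 4-fold for 269 of the 285 higher and 115 of the 133 lower genes, and wholly beyond 2-fold for all of them. Some of the most abundant messages were common to both libraries, such as Ly6e, a GPI-anchored surface protein, with 7326 CPM in preDC and 7279 CPM in pDC. Others, Cd74 and H2-Aa among them, were more abundant than Ly6e in pDC but far lower in preDC. Tyrobp, the ITAM adaptor through which Siglec-H signals, had 4642 CPM in preDC and 5550.0 CPM in pDC. The higher genes were led by genes of cell division, and the lower genes by MHC class II, T cell coreceptor, kallikrein and haemoglobin genes.

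**Figure D1:**
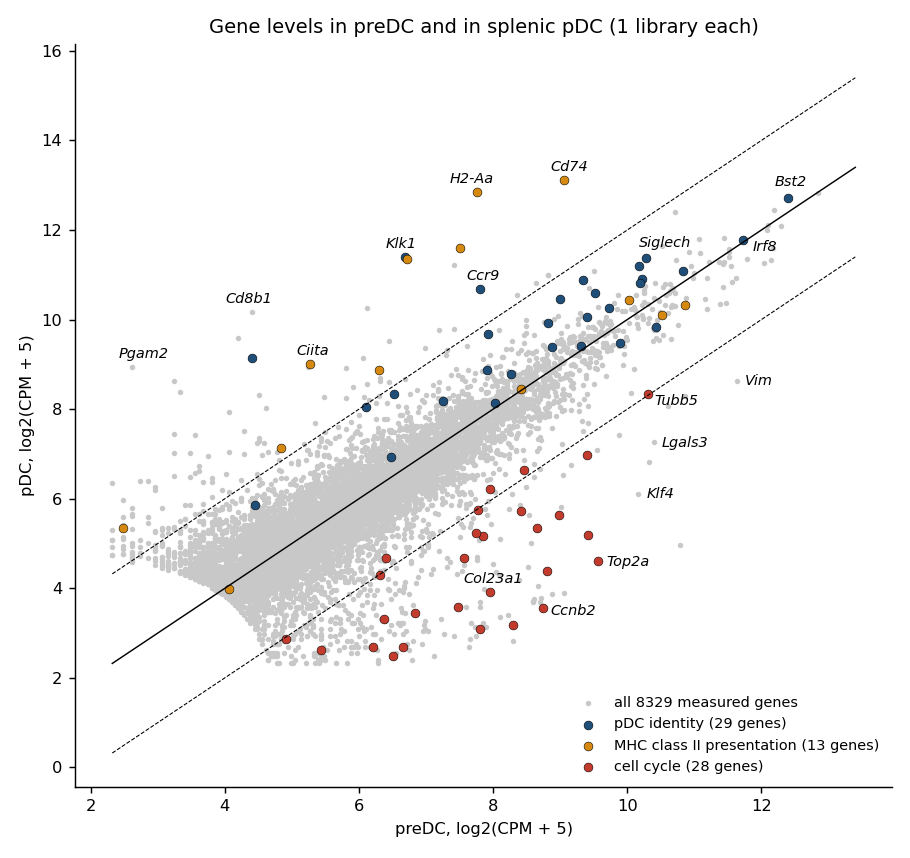
Level of each of 8329 measured genes in preDC (horizontal axis) and in splenic pDC (vertical axis), both as log2(CPM + 5), with 1 library each. The solid line marks equal levels and the dashed lines a 4-fold difference; pDC identity genes (blue) lie mostly near the solid line or above it, most MHC class II genes (orange) above the upper dashed line and most cell cycle genes (red) below the lower one.

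The pair was first checked against 4 markers. Siglech, a sialic acid-binding lectin of mouse pDC, had 1234 CPM in preDC, against 2655 CPM in pDC, a ratio of 0.465 (95% interval 0.443 to 0.487) and a log2 ratio of -1.10. Both libraries stood above the other 7, where Siglech reached 87.0 CPM in CDP and at most 22.9 CPM elsewhere. Ccr9, the receptor for the chemokine CCL25, had 219 CPM in preDC, against 1648 CPM in pDC, a ratio of 0.133 (95% interval 0.119 to 0.147). Its level was 51.6 CPM in DN DC, 46.9 CPM in CD8+ DC and 19.1 CPM or less in the others, so preDC lay between pDC and the remaining populations. H2-Aa, the alpha chain of the MHC class II molecule I-A, had 211 CPM in preDC, against 7419 CPM in pDC, a ratio of 0.0284 (95% interval 0.0256 to 0.0314). The preDC level was close to the 199 CPM of CDP and the 234 CPM of MDP, and the pDC level stood below the 18655 CPM of CD8+ DC and the 19157 CPM of DN DC. Col23a1, a transmembrane collagen, went the other way with 172 CPM in preDC, against 14.9 CPM in pDC, a ratio of 11.5 (95% interval 8.55 to 15.8). It reached 44.7 CPM in DN DC, 20.3 CPM in CD8+ DC and 6.69 CPM in CDP, and had 0 counts in MP and both monocyte libraries.

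**Figure D2:**
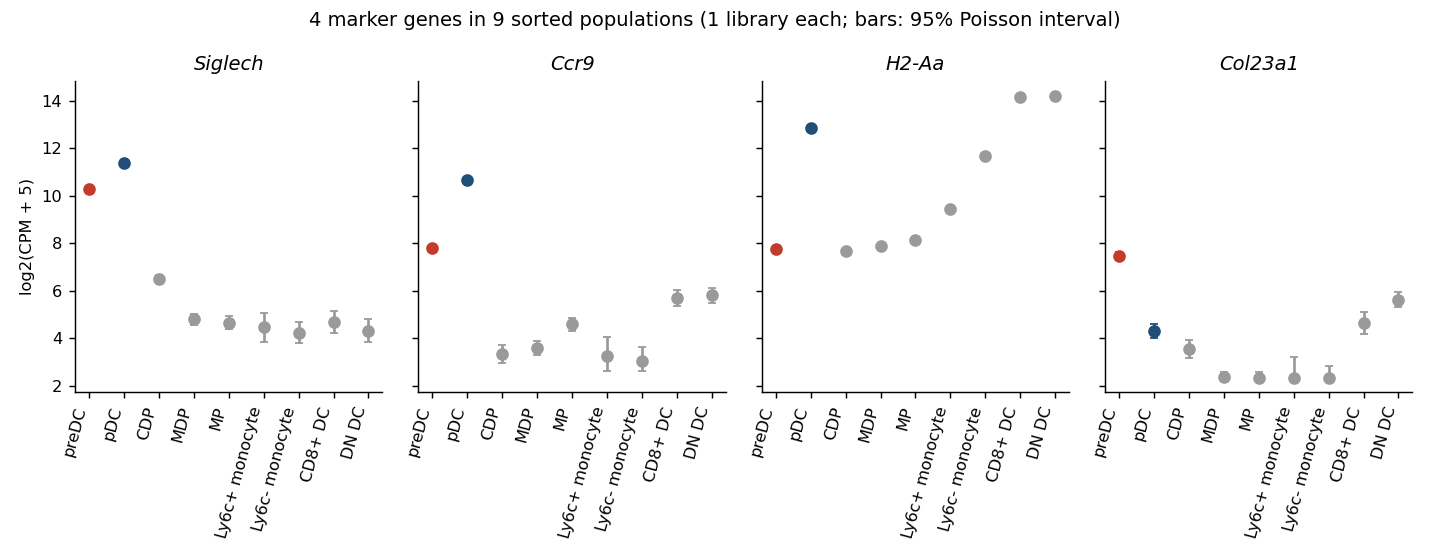
Level of the 4 markers in 9 sorted populations as log2(CPM + 5), with 1 library per point and exact Poisson 95% intervals as bars. Siglech is higher in preDC (red, 1234 CPM) and pDC (blue, 2655 CPM) than in the other 7, Ccr9 and H2-Aa are lower in preDC than in pDC, and Col23a1 is highest in preDC.

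The genes of the sort gates are no finding, since the sorts used their proteins. Bst2 and Itgax are also members of gene lists counted below. Itgax, which encodes CD11c, had 399 CPM in preDC and 229 CPM in pDC. Itgam, which encodes CD11b, had 58.7 CPM in preDC and 9.34 CPM in pDC, but 596 CPM in Ly6c+ monocytes and 189.7 CPM in DN DC. Bst2, which encodes the antigen of the mPDCA antibody, had 5378 CPM in preDC, against 6764 CPM in pDC, although the preDC gate did not include that antibody. CD45RA is an isoform of the protein of Ptprc, which had 274 CPM in preDC and 440.0 CPM in pDC, and 3′ end counts do not tell its isoforms apart.

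The library labelled preDC carried pDC markers at high level and few messages that define conventional DC. Of 31 listed genes of conventional DC and preDC, 23 were measured, of which 1 was higher, 1 was lower and 16 were shared (69.6%). Among all measured genes 3.42% were higher, 1.60% lower and 82.4% shared. The median log2 ratio of the list was -0.08, against 0.03. Zbtb46, a transcription factor of the conventional lineage, had 10.1 CPM in preDC, against 4.09 CPM in pDC, while CD8+ DC had 54.7 CPM and DN DC 41.9 CPM. Batf3, needed for the CD8+ lineage, had 2.24 CPM in preDC and 3.21 CPM in pDC, against 762 CPM in CD8+ DC and 406 CPM in DN DC. Xcr1, a chemokine receptor of that lineage, had 0 counts in preDC and 1.75 CPM in pDC, and 616 CPM in CD8+ DC. Id2, the inhibitor that blocks the Tcf4 protein, was low in both, with 31.9 CPM in preDC and 36.8 CPM in pDC, while CD8+ DC had 2468 CPM and DN DC 687 CPM. These 4 genes were thus low in both libraries of the pair beside the splenic DC libraries. In CDP, Batf3 and Id2 were low as well, at 9.88 and 59.9 CPM. The low levels of these 4 genes, with Siglech at 1234 CPM, leave the label preDC in doubt. Klf4, Cx3cr1 and most cell cycle genes, given further on, were higher in preDC than in pDC. They were not confined to preDC. Cx3cr1 and the cell cycle sum were higher in CDP, and Klf4 was also high in Ly6c- monocytes. Every value given for preDC is that of the library so labelled. Whether the sort held the cells intended was not tested.

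The growth factor receptors Flt3 and Csf1r were shared. Flt3, the receptor for the growth factor that drives DC development, had 437 CPM in preDC and 249.6 CPM in pDC. Csf1r, the receptor of colony-stimulating factor 1, had 174 CPM in preDC and 101 CPM in pDC. Kit, the stem cell factor receptor, was at 1.68 CPM in preDC and 12.3 CPM in pDC, below the 52.1 CPM of MDP. Clec9a, a lectin that binds dead cells and also marks DC precursors in mice, had 94.5 CPM in preDC and 228 CPM in pDC, outside the 2-fold range. Irf4, a transcription factor of a conventional DC branch, had 57.6 CPM in preDC and 55.2 CPM in pDC. The 1 gene of the list that was higher was Klf4 and the 1 that was lower was Cd8a, both given further on.

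The pDC identity genes were present in both libraries, on balance at a lower level in preDC. Of 31 listed genes found in the table, 29 were measured: 0 were higher in preDC, 3 were lower and 16 were shared (55.2%). Among all measured genes 3.42% were higher, 1.60% lower and 82.4% shared. The median log2 ratio of the list was -0.94, against 0.03. Summed over the list, the level was 24328 CPM in preDC and 40132 CPM in pDC, while the other libraries ranged between 2960.5 CPM in MP and 7842 CPM in Ly6c+ monocytes. These sums include Bst2, the gate gene of the pDC sort, with 5378 CPM in preDC and 6764 CPM in pDC. In preDC 27 of the 29 genes lay below pDC, 24 of them by less than 4-fold. The share of all measured genes below pDC was not computed. The 2 list members that were not measured, Klra17 and Rag1, had 0 counts in preDC and 9.63 and 0.584 CPM in pDC.

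Several transcription factors of the lineage were shared. Irf8, an interferon regulatory factor needed for several DC types, had 3375 CPM in preDC and 3522 CPM in pDC, a ratio of 0.958 (95% interval 0.929 to 0.988). Tcf4 had 673 CPM in preDC and 1057 CPM in pDC, while CDP and MDP had 128 and 137 CPM and both splenic DC libraries under 40 CPM. Spib, an Ets factor of pDC and B cells, had 840.1 CPM in preDC and 1229 CPM in pDC, and 20.7 CPM in CDP. Each of these 3 factors thus differed by less than 2-fold between the libraries. Runx2, which in mice is needed for pDC to leave the bone marrow, had 1370.1 CPM in preDC and 908 CPM in pDC, still within 2-fold. Bcl11a, a zinc finger factor of lymphoid cells and pDC, had 257 CPM in preDC and 274 CPM in pDC. Of 13 listed regulators and partners, 9 were shared (69.2%, against 82.4% of all measured genes), 0 were lower and 1 was higher. Among all measured genes 1.60% were lower and 3.42% higher. The higher gene was the cell cycle factor E2f2, with 82.2 CPM in preDC and 3.21 CPM in pDC. Irf7, the factor that drives interferon genes, was just outside the 2-fold range with 729 CPM in preDC and 1548 CPM in pDC (log2 ratio -1.08).

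Several surface and effector genes of pDC were shared as well. Ly6d, a surface protein of lymphoid progenitors and pDC, had 1184 CPM in preDC and 1904 CPM in pDC, and at most 67.2 CPM in the other 7 libraries. Cox6a2, a subunit of cytochrome c oxidase, had 1166 CPM in preDC and 1789.8 CPM in pDC, against 156 CPM in CDP. Upb1, an enzyme of pyrimidine breakdown, had 947 CPM in preDC and 709 CPM in pDC. Other list members lay lower in preDC by 2-fold to 4-fold. Pld4, a lysosomal nuclease, had 1157 CPM in preDC and 2342 CPM in pDC. Cd300c had 643 CPM in preDC and 1884 CPM in pDC, Lag3, an inhibitory receptor, had 86.6 CPM in preDC and 319 CPM in pDC, and Dntt, the template-free DNA polymerase of lymphoid progenitors, had 63.7 CPM in preDC and 261 CPM in pDC (log2 ratio -1.95, just inside the 4-fold bound).

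A second view started from levels and not from a list. Among all 8329 measured genes, 47 were shared by the pair and at least 4-fold above MP, MDP and both monocyte libraries in each of the 2. Their median level was 132 CPM in preDC and 149 CPM in pDC, against 17.8 CPM in CDP, 15.6 CPM in CD8+ DC and 11.7 CPM in DN DC, populations that the choice did not use. In both libraries 34 of the 47 also stood at least 4-fold above CDP, 32 above CD8+ DC and 32 above DN DC. The choice takes genes that are high in the pair, so part of this follows from it. No share over all measured genes was computed for these counts. The 10 most abundant of the 47 were Bst2 (a gate gene), Ly6d, Cox6a2, Runx2, Spib, Cd7, Ccnd1, Tcf4, Upb1 and Amica1. Cd7, a surface protein of T cells and pDC, had 1338 CPM in preDC and 729 CPM in pDC. Ccnd1, which encodes cyclin D1, had 824 CPM in preDC and 965 CPM in pDC. Ptprf, a receptor phosphatase picked after its values were seen, had 385 CPM in preDC and 451 CPM in pDC, and at most 26.4 CPM in CDP, MDP and both splenic DC libraries.

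**Figure D3:**
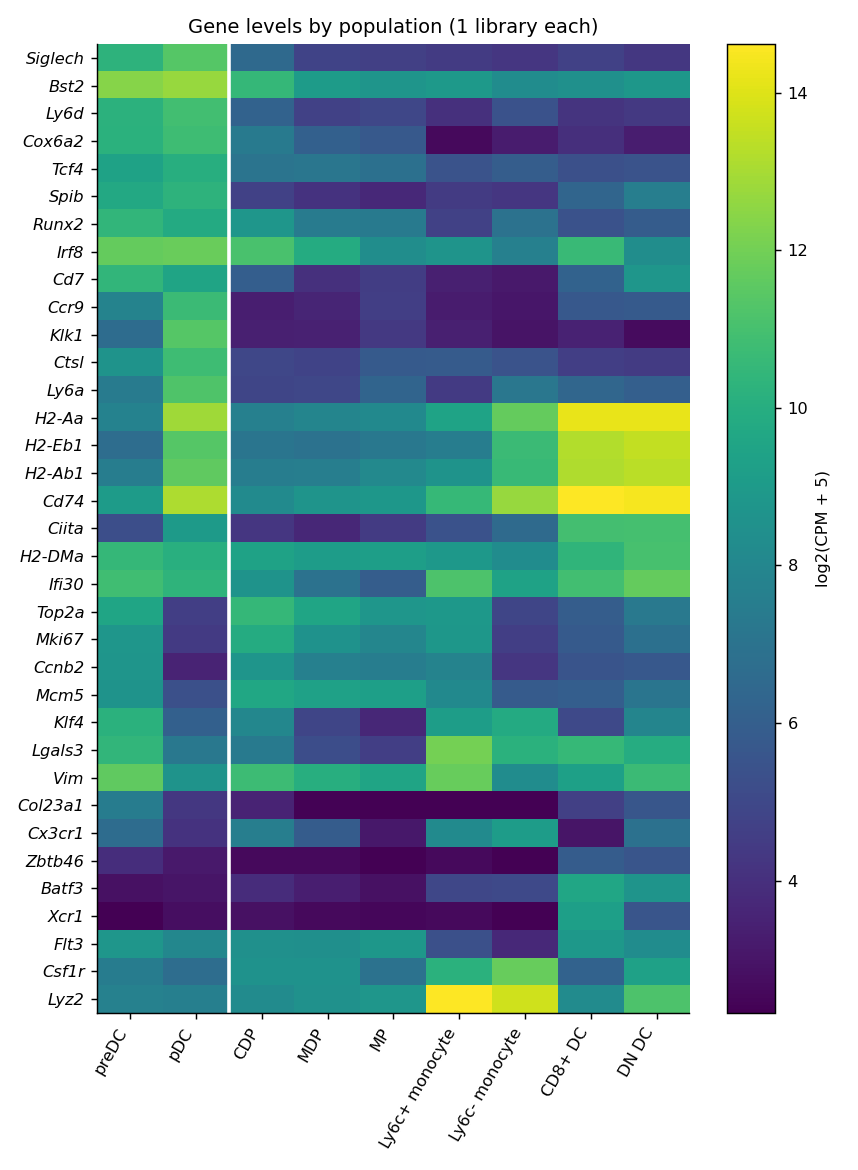
Level of 35 genes in 9 sorted populations (1 library each), coloured by log2(CPM + 5) from dark (low) to yellow (high), with preDC and pDC left of the white line. The upper 9 genes, among them the gate gene Bst2, are high in both, the next group from Ccr9 to Ciita is lower in preDC, and Top2a to Col23a1 are higher in preDC.

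Sensing and interferon-stimulated genes were shared about as often as all measured genes (82.4%). Of 12 measured genes of TLR and nucleic acid sensing, 10 were shared (83.3%) and none was 4-fold apart. Tlr9, the receptor for unmethylated DNA, had 466 CPM in preDC and 667 CPM in pDC, and Unc93b1, the chaperone that carries such receptors to endosomes, had 402 CPM in preDC and 504 CPM in pDC. Tlr7, the receptor for single-stranded RNA, was sparse with 16.8 CPM in preDC and 53.4 CPM in pDC, and Tlr12, a mouse receptor for profilin, had 59.3 CPM in preDC and 229.8 CPM in pDC (log2 ratio -1.87). Tmem173, which encodes the DNA sensing adaptor STING, had 192 CPM in preDC and 187 CPM in pDC. Of 22 measured interferon-stimulated genes, 18 were shared (81.8%) and none was 4-fold apart, with Mx1, an antiviral GTPase, at 105 CPM in preDC and 116 CPM in pDC. The secretory pathway list had 24 of 25 measured genes shared (96.0%), among them the chaperone gene Hsp90b1 with 1192 CPM in preDC and 1270.3 CPM in pDC. Its exception was Xbp1, the factor that expands the secretory apparatus, with 346 CPM in preDC and 801 CPM in pDC.

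Signalling and cytokine receptor genes also lay near the 82.4% of all measured genes. Of 14 genes of receptor signalling through ITAM motifs, 11 were shared (78.6%), and those outside the 2-fold range included Fyn and Blnk. Fyn, a Src family kinase, had 353 CPM in preDC and 1017 CPM in pDC. Blnk, a B cell linker that pDC also use, had 181 CPM in preDC and 418 CPM in pDC. Of 17 measured cytokine receptor genes, 15 were shared (88.2%). The 2 exceptions were Il2rg, the common gamma chain, with 153 CPM in preDC and 583 CPM in pDC, and Il6ra, the interleukin 6 receptor, with 189 CPM in preDC and 83.8 CPM in pDC. Among 13 measured C/EBP and IRF genes, 12 were shared (92.3%), and Cebpb, a factor of myeloid cells, was low in both with 36.3 CPM in preDC and 28.0 CPM in pDC.

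MHC class II presentation was the list with the most genes lower in preDC. Of 13 measured members, 8 were lower, 5 were shared and 0 were higher, against 1.60% lower among all measured genes, with a median log2 ratio of -2.57. This list holds the marker H2-Aa and was chosen with earlier results of these data known, so the count is a description. The classical chains led. H2-Eb1, the beta chain of I-E, had 101 CPM in preDC, against 2608 CPM in pDC, a ratio of 0.0386 (95% interval 0.0331 to 0.0447). H2-Ab1, the beta chain of I-A, had 177 CPM in preDC, against 3083 CPM in pDC, a ratio of 0.0575 (95% interval 0.0512 to 0.0643), and Cd74, the invariant chain, had 527 CPM in preDC, against 8852 CPM in pDC, a ratio of 0.0595 (95% interval 0.0558 to 0.0635). Ciita, their coactivator, had 33.5 CPM in preDC, against 508 CPM in pDC, a ratio of 0.0660 (95% interval 0.0501 to 0.0853). For these 4 genes preDC lay closer to CDP than to pDC, and in CDP H2-Eb1 had 133 CPM, H2-Ab1 179 CPM, Cd74 294 CPM and Ciita 14.3 CPM. In pDC they lay below DN DC, where the levels were 11615, 10324, 22317 and 2006 CPM in the same order.

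The accessory genes were on both sides of these bounds. H2-Oa and H2-Ob form the inhibitor H2-O, which restrains peptide loading in B cells and some DC. H2-Oa had 73.8 CPM in preDC and 462 CPM in pDC, and H2-Ob had 1 count in preDC and 123 in pDC, a ratio of 0.0156 (95% interval 0.000391 to 0.0884). H2-DMb2, a chain of the loading catalyst H2-DM, had 23.5 CPM in preDC and 134 CPM in pDC. By contrast the other H2-DM chains were shared, H2-DMa with 1469 CPM in preDC and 1091 CPM in pDC and H2-DMb1 with 338 CPM in preDC and 342 CPM in pDC. Ifi30, a thiol reductase of endosomes, had 1846 CPM in preDC and 1283 CPM in pDC, Ctss, the protease that trims the invariant chain, had 1034 CPM in preDC and 1384 CPM in pDC, and the ubiquitin ligase March1 had 11.7 CPM in preDC and 10.8 CPM in pDC. By CPM, H2-Aa, H2-Eb1, H2-Ab1, Cd74, Ciita and H2-Ob were thus at least 10-fold lower in preDC, H2-Ob on 1 count, while H2-DMa, H2-DMb1, Ifi30, Ctss and March1 were shared.

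The promoters of H2-Aa and H2-Eb1, the classical chains with the lowest ratios, are shown because both hold the Y box, which is known to bind the factor NF-Y in the promoters that Ciita acts on. The sequences are from RefSeq (GRCm38.p6, not the mm9 of the submitters' notes), cover 250 bases before to 50 after the start, run 5′ to 3′ on the gene's strand, and have the Y box CTGATTGG in capitals. H2-Aa lies at chr17:34287774-34288073, minus strand, and H2-Eb1 at chr17:34305617-34305916, plus strand.
H2-Aa: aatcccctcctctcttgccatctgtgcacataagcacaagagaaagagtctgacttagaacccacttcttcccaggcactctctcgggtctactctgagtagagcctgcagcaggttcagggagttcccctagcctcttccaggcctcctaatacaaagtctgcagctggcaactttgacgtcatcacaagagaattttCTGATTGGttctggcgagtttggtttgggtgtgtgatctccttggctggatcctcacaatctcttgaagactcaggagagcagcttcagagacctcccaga
H2-Eb1: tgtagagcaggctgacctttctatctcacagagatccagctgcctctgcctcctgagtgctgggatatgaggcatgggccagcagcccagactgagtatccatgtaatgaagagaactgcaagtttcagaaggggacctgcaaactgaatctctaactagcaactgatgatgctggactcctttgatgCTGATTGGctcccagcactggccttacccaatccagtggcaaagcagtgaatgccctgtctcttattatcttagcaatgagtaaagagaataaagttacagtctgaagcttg
Searched on both strands, this motif was found in 4.70% of 27025 promoter windows of all genes and in 6.66% of those of measured genes. Its last 5 letters are the reverse complement of the CCAAT box, so each match is also a match of that shorter motif. Only 9 of the 13 measured class II genes had a window, too few for a share over the list. A match is a description of letters and not of binding.

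MHC class I genes were shared about as often as all measured genes. Of 13 listed and measured genes none was 4-fold apart and 11 were shared (84.6%, against 82.4%), with a median log2 ratio of -0.37. B2m, the light chain of class I molecules, had 1674 CPM in preDC and 5439 CPM in pDC (log2 ratio -1.70), and H2-K1, a classical heavy chain, had 1469 CPM in preDC and 3173 CPM in pDC. Tap1, the peptide transporter, had 591 CPM in preDC and 586 CPM in pDC. H2-Q7 and H2-Q9, non-classical heavy chains picked after their values were seen, were just past the 4-fold bound (log2 ratios -2.17 and -2.16), H2-Q7 with 446 CPM in preDC and 2025 CPM in pDC. Their counts were almost equal within each library, and since such near-identical genes can share reads, their values are uncertain. The maturation genes of DC were sparse, with 7 of 15 measured, none 4-fold apart and Ccr7, the receptor for lymph node entry, at 10.1 CPM in preDC and 19.9 CPM in pDC.

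Several genes that were abundant in pDC were far lower in preDC. Pgam2, a phosphoglycerate mutase best known from muscle, had 2 counts in preDC and 1662 in pDC, a ratio of 0.00230 (95% interval 0.000279 to 0.00834). It had at most 5.50 CPM in CDP, MDP and both splenic DC libraries. Cd8b1 and Cd4 encode T cell coreceptor chains that mouse pDC can also express. Cd8b1 had 16.2 CPM in preDC and 1148 CPM in pDC, and Cd4 had 64.8 CPM in preDC and 1212 CPM in pDC. The related chain Cd8a had 33.0 CPM in preDC and 486 CPM in pDC, below the 1316 CPM of CD8+ DC. In contrast the T cell receptor complex was near 0 in both, with Cd3d, Cd3e and Cd3g at 0, 0.559 and 0 CPM in preDC and 1.46, 1.46 and 3.21 CPM in pDC.

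Genes of secreted and surface proteins were also among the lower ones. Klk1, a tissue kallikrein, had 98.4 CPM in preDC, against 2692 CPM in pDC, and Klk1b27 had 16.2 CPM in preDC, against 564 CPM in pDC, while Klk1 stood at 6.25 CPM or less in CDP, MDP and both splenic DC libraries. Kallikrein genes are closely similar, so the split between them is uncertain. Ly6a, the stem cell antigen Sca-1, which interferon also raises, had 166 CPM in preDC, against 2383 CPM in pDC, and Procr, the protein C receptor, had 1 count in preDC and 198 in pDC. Ctsl, a lysosomal cathepsin, had 394 CPM in preDC, against 1789.8 CPM in pDC, and at most 25.8 CPM in CDP, MDP and both splenic DC libraries. Cd209d, a C-type lectin, had 154 CPM in preDC, against 633 CPM in pDC (log2 ratio -2.01, at the 4-fold bound). Cxcr3, a receptor for interferon-induced chemokines, had 18.4 CPM in preDC, against 121 CPM in pDC. Ctsl and Cd209d were thus present in both members of the pair above CDP, at a lower level in preDC.

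Other lower genes encode signalling proteins. Trib1, a pseudokinase, had 11.7 CPM in preDC, against 239 CPM in pDC, and Kdr, a receptor of vascular endothelial growth factor, had 6.71 CPM in preDC, against 168 CPM in pDC. Notch3, Cacna1e, Ltb and P2ry14 were picked after their values were seen. Notch3, a Notch receptor, had 4.47 CPM in preDC, against 125 CPM in pDC, and Cacna1e, a calcium channel subunit, had 19.6 CPM in preDC, against 258 CPM in pDC. Ltb, which encodes lymphotoxin beta, had 17.9 CPM in preDC, against 312 CPM in pDC, and P2ry14, a receptor of UDP-sugars, had 55.3 CPM in preDC, against 355 CPM in pDC. Jun, a subunit of AP-1, had 31.3 CPM in preDC, against 143 CPM in pDC. Of 14 measured immediate early genes 9 were shared (64.3%, against 82.4% of all measured genes).

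The cell cycle list had the most genes higher in preDC. Of 28 measured cell cycle genes, 24 were higher, none was lower and none was shared, against 3.42% higher among all measured genes, and the median log2 ratio was 3.19. This list too was chosen with earlier results of these data known. The 4 genes short of the 4-fold bound were Mcm2, Mcm6, Pcna and Tubb5, with log2 ratios of 1.71, 1.75, 1.81 and 1.97. The summed level was 8499 CPM in preDC and 1017 CPM in pDC, beside 13325 CPM in CDP, 10189 CPM in MDP and 1202 CPM in Ly6c- monocytes. On this list preDC thus lay among the bone marrow progenitors, and pDC was the lowest of the 9 libraries.

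Within the cell cycle list, genes of mitosis led. Ccnb2, which encodes cyclin B2, had 423 CPM in preDC, against 6.72 CPM in pDC, a ratio of 62.9 (95% interval 41.6 to 99.9). Birc5, the chromosomal passenger survivin, had 311 CPM in preDC, against 4.09 CPM in pDC, a ratio of 76.0 (95% interval 44.9 to 140.0), and Plk1, a mitotic kinase, had 219 CPM in preDC, against 3.50 CPM in pDC, a ratio of 62.4 (95% interval 35.3 to 122). Top2a, the topoisomerase that untangles chromosomes, had 755 CPM in preDC and 19.3 CPM in pDC, beside 1464 CPM in CDP. Mki67, the proliferation antigen Ki-67, had 440.5 CPM in preDC and 16.1 CPM in pDC, and Cenpf, a kinetochore protein outside the list, had 310.2 CPM in preDC and 2.04 CPM in pDC. All 6 had pDC levels below 20 CPM and CDP levels above 180 CPM. Genes of DNA replication had smaller ratios, with Mcm5, a helicase subunit, at 399 CPM in preDC and 35.6 CPM in pDC and Pcna, the polymerase clamp, at 348 CPM in preDC and 95.5 CPM in pDC. Stmn1, a microtubule-destabilising protein of dividing cells, had 677 CPM in preDC and 31.5 CPM in pDC. Cdkn3, a phosphatase picked after its values were seen, had 240 counts in preDC and 2 in pDC, a ratio of 229.7 (95% interval 62.9 to 1908).

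Promoters of a pair of the mitotic genes are shown because genes of late cell cycle phases are known to carry a CHR element (TTTGAA), often next to CCAAT boxes that bind NF-Y. Both motifs are in capitals in these RefSeq windows of the same extent and build. Ccnb2 lies at chr9:70421505-70421804, minus strand, and Plk1 at chr7:122159185-122159484, plus strand.
Ccnb2: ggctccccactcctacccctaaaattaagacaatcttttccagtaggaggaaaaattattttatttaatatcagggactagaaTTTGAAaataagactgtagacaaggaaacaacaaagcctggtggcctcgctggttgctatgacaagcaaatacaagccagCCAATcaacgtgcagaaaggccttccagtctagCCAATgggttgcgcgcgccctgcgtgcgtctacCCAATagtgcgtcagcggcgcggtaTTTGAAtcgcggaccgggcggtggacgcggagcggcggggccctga
Plk1: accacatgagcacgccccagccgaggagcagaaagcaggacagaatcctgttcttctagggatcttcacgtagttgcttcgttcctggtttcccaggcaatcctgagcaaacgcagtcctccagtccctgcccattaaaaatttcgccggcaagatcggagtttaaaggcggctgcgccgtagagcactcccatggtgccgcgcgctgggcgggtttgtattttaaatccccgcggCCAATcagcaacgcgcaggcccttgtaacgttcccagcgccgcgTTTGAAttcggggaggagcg
The windows hold 3 CCAAT and 2 CHR matches for Ccnb2 and 1 of each for Plk1. Searched on both strands, TTTGAA was in 9 of the 23 windows of measured cell cycle genes (39.1%), against 14.3% of windows of measured genes and 20.2% of all windows. CCAAT was in 18 of the 23 (78.3%), against 43.4% and 41.1%. The CCAAT box of Plk1 is also part of a Y box read on the other strand.

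Histone genes went with them. Of 22 measured genes with names that start with Hist, 14 were higher in preDC, against 3.42% higher among all measured genes. These 14 had log2 ratios between 2.10 and 5.82, and their summed level was 5233 CPM in preDC and 101 CPM in pDC, against 5265 CPM in CDP. Hist1h2ap had the largest log2 ratio of any gene that reached 100 CPM, with 1760.2 CPM in preDC and 26.3 CPM in pDC. The H2a genes of this cluster are near-identical and can share reads, so their values, the count of higher genes and the sum are uncertain.

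Higher genes outside cell division included transcription factors and cytoskeletal genes. Klf4, a zinc finger factor of monocyte and preDC differentiation, had 1140.3 CPM in preDC, against 64.2 CPM in pDC, a ratio of 17.8 (95% interval 15.4 to 20.5). It stood at 250.4 CPM in CDP, 239 CPM in DN DC and 899 CPM in Ly6c- monocytes, so that preDC was the highest of the 9. Lgals3, which encodes galectin 3, had 1345 CPM in preDC, against 148 CPM in pDC, a ratio of 9.07 (95% interval 8.24 to 10.00), while CD8+ DC had 1488 CPM and MDP 32.8 CPM. Cx3cr1, the fractalkine receptor of monocytes and DC precursors, had 97.8 CPM in preDC, against 12.6 CPM in pDC, and 189 CPM in CDP. Mxd3, a MAX partner that was also among the largest ratios, had 195 CPM in preDC and 1.46 CPM in pDC.

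Further higher genes were picked after their values were seen. Vim, which encodes the intermediate filament vimentin, had 3174 CPM in preDC, against 392 CPM in pDC, and 1698 CPM in CDP. Crip1, a LIM domain protein, had 1557 CPM in preDC, against 263 CPM in pDC, and S100a4, a calcium-binding protein, had 509 CPM in preDC, against 51.7 CPM in pDC. L1cam, an adhesion molecule of neurons and leukocytes, had 269 CPM in preDC and 29.2 CPM in pDC, beside 36.6 CPM in CDP. Cd300lg had 98.4 CPM in preDC, against 1.46 CPM in pDC, and 30.9 CPM in DN DC, and Sema4a, a semaphorin, had 184 CPM in preDC, against 17.8 CPM in pDC. Fut7, the fucosyltransferase that makes selectin ligands, had 218 CPM in preDC, against 7.88 CPM in pDC, while CDP and MDP had 209 and 195 CPM. Of these 7 genes, Fut7 lay at the level of CDP, and L1cam and Cd300lg lay more than 7-fold above it. None is particular to preDC: all but L1cam and Fut7 were higher in Ly6c+ monocytes than in preDC, with Cd300lg at 183 CPM there. L1cam had 346 CPM in Ly6c- monocytes.

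**Figure D4:**
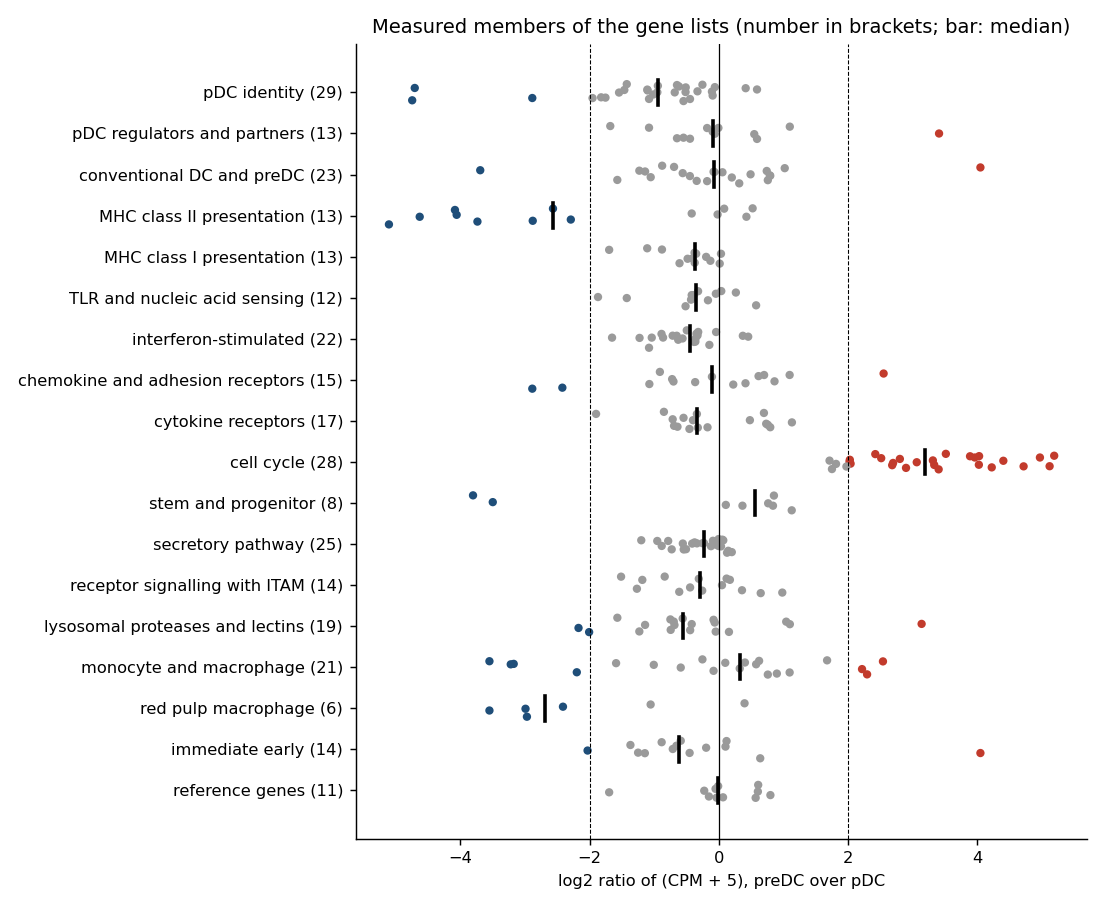
Log2 ratio of CPM + 5 (preDC over pDC) for each measured member of 18 gene lists, with the number of members in brackets, the median as a black bar and dashed lines at a 4-fold difference. Members of the cell cycle list lie to the right (median 3.19). Most of MHC class II presentation (median -2.57) and of the red pulp macrophage list (median -2.69) lie to the left. The pDC identity list has a median of -0.94, and most other lists lie around 0.

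Of 8 measured stem and progenitor genes 5 were shared (62.5%, against 82.4% of all measured genes). The 2 lower ones were Ly6a and Procr, against 1.60% lower among all measured genes. The sum over the list was 663 CPM in preDC and 2744 CPM in pDC, most of it Ly6a in pDC, beside 1868 CPM in CDP. Cd34, a surface protein of progenitors, had 24.6 CPM in preDC and 11.4 CPM in pDC, against 303 CPM in CDP and 704 CPM in MDP. Sox4, a factor of progenitors, had 280.0 CPM in preDC and 163 CPM in pDC, against 926 CPM in CDP. Mpo, the granule enzyme of myeloid progenitors, had 45.3 CPM in preDC and 80.6 CPM in pDC, while CDP had 947 CPM and MDP 3211 CPM. In preDC the cell cycle sum was thus in the range of the progenitor libraries, while Cd34, Sox4 and Mpo lay below CDP.

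Of 15 measured chemokine and adhesion receptor genes, 10 were shared (66.7%, against 82.4% of all measured genes), Ccr9 and Cxcr3 were lower and Cx3cr1 was higher. Among all measured genes 1.60% were lower and 3.42% higher. Selplg, the selectin ligand PSGL-1, had 2751 CPM in preDC and 1691 CPM in pDC, and Cxcr4, which retains cells in bone marrow, had 133 CPM in preDC and 70.9 CPM in pDC. Ccr2, which leads cells out of it, had 36.9 CPM in preDC and 14.6 CPM in pDC. Itgb7, an integrin chain of gut homing, had 664 CPM in preDC and 432 CPM in pDC. Apart from Ccr9, Cxcr3 and Cx3cr1, the measured homing genes differed by less than 4-fold.

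Markers of other blood cells were examined because other cells could be in either sort. Of 6 measured genes of red pulp macrophages, which clear red cells in spleen, 4 (C1qa, Cd5l, Hmox1 and Vcam1) were lower in preDC. Among all measured genes 1.60% were lower and 3.42% higher. The median log2 ratio of the red pulp list was -2.69, and its sum was 94.5 CPM in preDC and 483 CPM in pDC. The defining genes of these macrophages, Vcam1 and Spic, had 0 counts in preDC and 21.6 and 16.6 CPM in pDC. Cd5l had 0 counts in preDC and 34.2 CPM in pDC, at least 20.4-fold lower in preDC (against 3 counts). The complement gene C1qa had 6.15 CPM in preDC and 126 CPM in pDC. Of 21 measured monocyte and macrophage genes, 4 were lower (C1qa, C1qb, C1qc and Emr1) and 3 were higher (Ccl9, Fn1 and Ms4a6c). In this list 10 were shared (47.6%, against 82.4% of all measured genes). Lyz2, a lysozyme of myeloid cells, was at 206 CPM in preDC and 192 CPM in pDC, against 24882 CPM in Ly6c+ monocytes. Haemoglobin messages were also lower in preDC, with Hba-a2 at 4.47 CPM in preDC and 392 CPM in pDC and a sum of the erythroid list of 53.1 CPM in preDC and 779 CPM in pDC. The other spleen libraries held them too, with 255 CPM of Hba-a2 in CD8+ DC and 376 CPM in DN DC. The part of these cells in the genes lower in preDC was not tested.

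Lymphoid markers were near 0 where they define a cell type. Of 19 B cell genes found, 8 were measured, 5 of them shared (62.5%) and 1 lower. Among all measured genes 82.4% were shared and 1.60% lower. Cd79a, Ms4a1 and Pax5 were at 0 CPM in preDC and 1.17, 4.67 and 0 CPM in pDC. Cd79b, a chain of the B cell receptor complex that pDC also express, had 138 CPM in preDC and 249.6 CPM in pDC, and the lower gene was Fcrla, an intracellular Fc receptor-like protein, with 167 CPM in preDC, against 874 CPM in pDC. In the T cell list the lower genes were Cd8b1 and Cd4 alone. In the NK cell list 2 genes were measured: Klrk1, which encodes the receptor NKG2D, had 47.5 CPM in preDC and 4.96 CPM in pDC, and the chemokine gene Ccl5 had 1.12 CPM in preDC and 35.3 CPM in pDC, with Klrb1c at 0 in both. Of 6 measured plasma cell genes 1 was lower, Mzb1, a cochaperone of antibody secretion listed under an older symbol, with 62.0 CPM in preDC and 561 CPM in pDC, and Tnfrsf17, a defining receptor, was at 0 in both. Of 19 neutrophil and granule genes found 4 were measured and all 4 were shared, with the defining gene S100a8 at 0 in preDC and 1.17 CPM in pDC. Elane, which encodes neutrophil elastase, was at 595 CPM in preDC and 723 CPM in pDC and between 672 and 1415 CPM in the other 7 libraries. None of the 9 listed basophil, mast cell and eosinophil genes found was measured.

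The genes that set the pair apart were then read in the other 7 libraries. The 285 genes higher in preDC had a median of 81.6 CPM in preDC and 4.38 CPM in pDC, and of 99.1 CPM in CDP, 70.1 CPM in MDP, 50.9 CPM in MP and 38.9 CPM in Ly6c+ monocytes. In Ly6c- monocytes, CD8+ DC and DN DC their medians were 8.96, 11.7 and 21.3 CPM. The 133 lower genes had a median of 6.71 CPM in preDC and 82.6 CPM in pDC, and of 4.46 to 17.2 CPM in the other 7. The shared genes had medians between 41.4 and 57.2 CPM in all 9. The choice of the genes fixes their order between preDC and pDC, and a gene lower in preDC passed the filter on low levels mostly through pDC. The medians do not hold for each gene, as H2-Aa, at 18655 CPM in CD8+ DC, was higher there than in pDC.

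**Figure D5:**
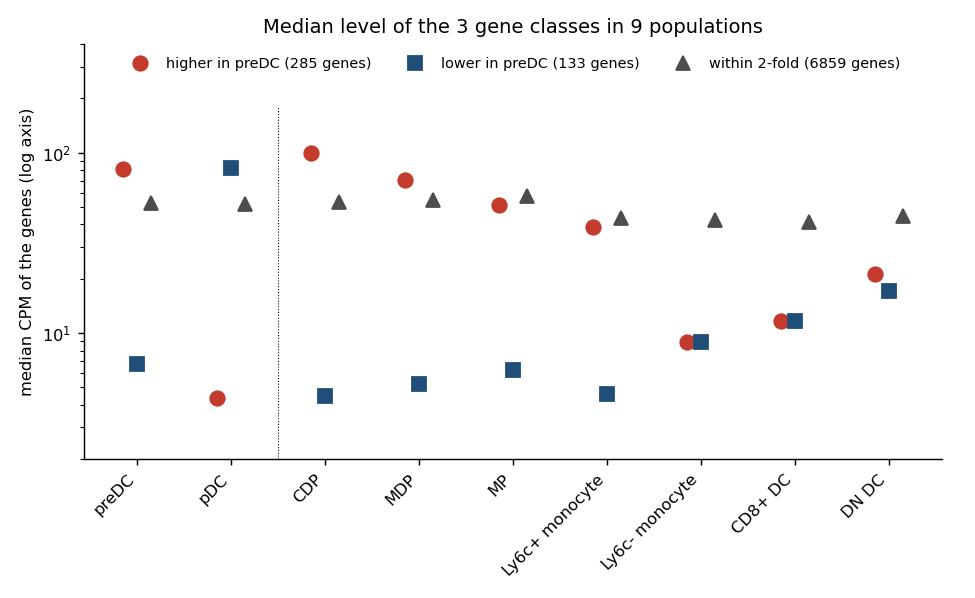
Median level (CPM, log axis) in 9 sorted populations of the genes higher in preDC (red circles, 285 genes), lower in preDC (blue squares, 133 genes) and within 2-fold (grey triangles, 6859 genes), with preDC and pDC left of the dotted line. The red circles are high in preDC, CDP, MDP, MP and Ly6c+ monocytes, and the blue squares are at 82.6 CPM in pDC, as the choice of these genes requires, and at 4.46 to 17.2 CPM in the 7 libraries that the choice did not use.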

How the data were processed

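The table of sorted populations, as deposited by the authors, holds estimated counts per gene symbol, of which 15.5% in preDC and 17.6% in pDC are not whole. The submitters' processing notes name TopHat and mm9, and the tool that counted reads, with its rule for reads that map to several genes, is not given in the sources used here. Counts were rounded, the row without a gene name (0.0123% of preDC counts) was left out, and CPM were computed over column totals. Columns were matched to samples by name, and 1 column that matched none was not used. Of 13963 gene rows, 12562 symbols matched the reference tables and 8329 were measured (mean of at least 10 CPM over the pair). With 1 library per population no test was made. Levels carry exact Poisson and ratios exact binomial 95% intervals, for counting error alone (without molecular identifiers, PCR copies count as separate reads). Motifs were searched in RefSeq promoter windows. The members and the 30 gene lists were chosen with earlier results of these data known. Named genes are the markers and gate genes, the 15 largest log2 ratios per direction reaching 100 CPM, the 10 most abundant genes of each library and of those shared by the pair but not by progenitors and monocytes, and, of each list, up to 6 members with the largest ratios, the one most against its median and up to 3 nearest a ratio of 1. Other list members and those said to be picked were chosen after their values were seen. Alternatives were scaling by TMM (edgeR 4.0.16) or DESeq2 1.42.0 size factors in R 4.3.3, other CPM added, filters and totals. The script was tested on simulated data. Some listed genes are not reported here.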

Additional observations from a re-analysis of the deposited data

How the results depend on the processing

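No paired analysis was possible because each population is 1 library, and no replicate could be left out. Under TMM factors, DESeq2 size factors, unrounded counts, a total without the most abundant genes, and (chosen after seeing the data) without genes named Hist, 271 to 290 genes were higher and 133 to 149 lower, and the median log2 ratio of all measured genes moved by at most 0.04 in size. With 1 CPM added 366 were higher and 205 lower, and with 20 CPM added 113 and 57. With a mean of at least 50 CPM 125 were higher, 61 lower and 3572 shared, and with no filter 291, 151 and 11982. These shifts follow from the settings, since a larger addition shrinks the ratios of low genes and a stricter filter leaves fewer genes. MHC class II genes lower in preDC numbered 6 to 8 and cell cycle genes higher 17 to 24 over all these settings, and pDC identity genes lower 3 or 4. Of 62 named genes past 4-fold, 48 were so under every alternative, and none of the 62 changed direction. Reversal was not counted for the other named genes, and the filter settings cannot change a ratio. Depth limits genes with few counts: 10 higher genes had 0 counts in pDC and 7 lower genes 0 in preDC, so their log2 ratios depend on the CPM added.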

Other observations

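The mixed list of lysosomal proteases and lectins was shared less often than all measured genes (82.4%), but of its measured proteases only Ctsl was not shared. Of 19 measured lysosomal proteases and lectins, 11 were shared (57.9%), 2 were lower (Ctsl and Cd209d) and 1 was higher (Lgals3), with a median log2 ratio of -0.56. Among all measured genes 1.60% were lower and 3.42% higher. Ctsb, a cysteine protease, had 2136 CPM in preDC and 3583 CPM in pDC, and Ctsz, another, had 571 CPM in preDC and 591 CPM in pDC. Cst3, the cathepsin inhibitor cystatin C, went the other way with 2663 CPM in preDC and 1289.9 CPM in pDC, while CD8+ DC had 14275 CPM. Lgals1, which encodes galectin 1, had 2825 CPM in preDC and 1316 CPM in pDC, against 48.5 CPM in CD8+ DC and 160.2 CPM in DN DC. Of 11 reference genes 10 were shared, and B2m was the exception. Xist, expressed in female cells, had 192 CPM in preDC and 318 CPM in pDC.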
